A study of Mus musculus with 6 samples.

Results

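Homeobox and limb position genes were taken as every gene whose platform symbol falls in the Hox, Meis, Pbx, Pitx, low-numbered Tbx, Lbx, Shox, Irx, Prrx, Msx or Zfhx families. The rule matched 70 of the 19057 genes with a single annotated symbol on the array, read by 127 of its 45281 probes. They comprised 38 Hox genes, the antisense transcript gene Hoxd3os1, and 31 others, of which 6 were T-box genes, a family with a DNA-binding domain unrelated to the homeodomain. The mice were males aged 3 months, and the RNA came from their tibialis anterior, a fast muscle at the front of the shin. There were 3 arrays labelled PGC1b transgenic and 3 arrays labelled wild type, on the 1-colour Illumina Mouse WG-6 v2 platform. The transgene is named for PGC-1β, a transcriptional coactivator of mitochondrial genes encoded by Ppargc1b. The labels give neither the promoter that drives it nor the strain, nor whether the arrays come from different mice. The p-values thus speak of variation among the arrays, part or all of which could be technical.

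Homeodomain proteins are transcription factors that bind DNA through a conserved helical fold. The Hox genes lie in 4 chromosomal clusters, HoxA to HoxD, and their order along a cluster follows the position along the body and limb at which they act in the embryo. Low-numbered paralogues act towards the head, and high-numbered ones towards the tail and the end of the limb. Meis and Pbx proteins bind DNA together with Hox proteins, Lbx1 acts in muscle precursors that migrate into the limb, Pitx1 and Tbx4 are known for the hindlimb and Tbx5 for the forelimb. Adult connective tissue and muscle cells often keep the Hox pattern of the place they came from.

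The signal of Ppargc1b goes against the label. Its probe read 281.3, 373.4 and 309.8 on the arrays labelled transgenic, against 497.2, 648.7 and 708.9 on the wild-type arrays, a log2 change of -1.32 (SE 0.21, adjusted p = 0.000734 in limma). The stretch of mRNA this probe reads is not known here, nor whether the transgene carries it. All directions below therefore rest on the labels. The difference between the groups was broad: of 9978 genes tested, 28.1% were higher and 28.2% lower at an adjusted p under 0.05. More probes were above background on the arrays labelled transgenic (17525 to 17604) than on the wild-type arrays (15338 to 15691). All 12 markers of mature muscle fibres, among them the actin gene Acta1, were above background on every array. Precision is limited by having 3 arrays in a group.

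In what follows a level is a log2 signal after background correction and quantile normalization, and a change is the mean of the arrays labelled transgenic minus the mean of the wild-type arrays. A probe is above background where its detection p is under 0.05, and a gene was tested where a probe was above background on at least 3 of the 6 arrays. "Rose" and "fell" mean an adjusted p under 0.05. A level is set only against the level of the same probe.

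Promoter sequence was matched for 43 of the 70 genes. Of the 11 members whose call held in every alternative in which they were tested, 5 were matched. The 250 bases before the annotated start of 3 of them are shown: Irx3 and Zfhx3, which fell, and Msx1, which rose. Pitx3 and Tbx1, which fell, were matched but are not shown. Sequences are from RefSeq, build GRCm38.p6. Those of Irx3 (chr8:91801655-91801904) and Msx1 (chr5:37824586-37824835) lie on the minus strand and that of Zfhx3 (chr8:108714394-108714643) on the plus strand. Capitals mark matches to any of the 8 short motifs searched.
Irx3: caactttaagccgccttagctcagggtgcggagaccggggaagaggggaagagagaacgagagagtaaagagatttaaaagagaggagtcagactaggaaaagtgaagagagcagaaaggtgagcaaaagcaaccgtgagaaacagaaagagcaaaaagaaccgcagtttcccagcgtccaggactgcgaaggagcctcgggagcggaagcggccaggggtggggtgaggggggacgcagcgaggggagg
Msx1: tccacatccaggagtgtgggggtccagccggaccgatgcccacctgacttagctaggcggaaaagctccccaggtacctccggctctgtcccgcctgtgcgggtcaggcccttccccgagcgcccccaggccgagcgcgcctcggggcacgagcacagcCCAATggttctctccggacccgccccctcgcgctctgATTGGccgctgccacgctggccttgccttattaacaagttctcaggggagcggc
Zfhx3: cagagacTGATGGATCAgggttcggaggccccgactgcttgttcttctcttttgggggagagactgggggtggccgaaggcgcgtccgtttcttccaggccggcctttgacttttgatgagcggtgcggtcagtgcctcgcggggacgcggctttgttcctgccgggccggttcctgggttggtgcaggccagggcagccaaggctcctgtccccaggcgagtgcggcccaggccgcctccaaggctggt
Both strands were searched for TATAAA (the TATA box), CCAAT (the CCAAT box), CACGTG (an E-box), CAGCTG (the E-box of myogenic factors), TGATNNAT (a PBX-HOX composite), TGACAG (a MEIS core), TAATCC (a PITX-type core) and AAGGTCA (an element of the ERR receptors). Msx1 held CCAAT once on each strand. That motif occurred in 21 of 46 promoters of member genes and in 33.8% of 32851 mouse promoters of the same length. Zfhx3 held TGATNNAT in 2 overlapping matches, 1 per strand, and that motif occurred in 6 of 46 member promoters and in 7.68% of all. Irx3 held none of the 8. Of the matched members not shown, Pitx3 held CAGCTG, 180 to 175 bases before the start, and Tbx1 held none of the 8. AAGGTCA occurred in 1 of 46 member promoters, that of Hoxd8, and in 4.08% of all, and TAATCC in 0 of 46 and in 6.25% of all. TATAAA occurred in 9 of 46 and in 12.4% of all, CACGTG in 4 and 6.02%, CAGCTG in 5 and 13%, and TGACAG in 2 and 15.9%. A match describes the letters only, not a bound site.

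Detection was uneven. Of the 70 genes, 34 (48.6%) were tested, 8 were above background on 1 or 2 arrays, and 28 were above background on none. Over the whole array the same rule tested 9978 of 19057 genes, a similar share. The 42 probes of those 28 genes had unnormalized signals of 49.4 to 88. The probes that stood for tested members ran from 67.2 to 1847.2, so the 2 ranges overlapped. The 28 were Hoxa3, Hoxa6, Hoxa10, Hoxa11, Hoxb1, Hoxb3, Hoxb6, Hoxb8, Hoxb9, Hoxb13, Hoxc5, Hoxc8, Hoxc11, Hoxc12, Hoxd1, Hoxd3, Hoxd12, Hoxd13, Hoxd3os1, Irx1, Irx4, Irx5, Irx6, Msx2, Pbx4, Pitx1, Prrxl1 and Tbx5. The hindlimb gene Pitx1 is among them: its 1 probe never exceeded 80, with a lowest detection p of 0.127. Both probes of the forelimb gene Tbx5 stayed at or under 87.2. A probe below background gives only an upper bound on its gene, since probes differ in how well they bind.

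Among the 38 Hox genes, 16 were tested, and they were spread over the clusters with gaps between detected neighbours. Tested genes numbered 6 of 10 in HoxA, 3 of 10 in HoxB, 3 of 9 in HoxC and 4 of 9 in HoxD. By position within a cluster, 2 of 7 genes of paralogue groups 1 to 3 were tested, 8 of 15 of groups 4 to 8 and 6 of 16 of groups 9 to 13. All 6 arrays read HoxC genes of intermediate and high number, Hoxc6, Hoxc9 and Hoxc10. Hoxa13, which acts at the far end of the limb, was also above background on all 6 arrays, with 1 of its 3 probes. That probe had levels of 6.07, 5.97 and 6.22 in the arrays labelled transgenic and 6.18, 6.39 and 6.33 in wild type. The other Hoxa13 probes were above background on 0 arrays.

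**Figure D1:**
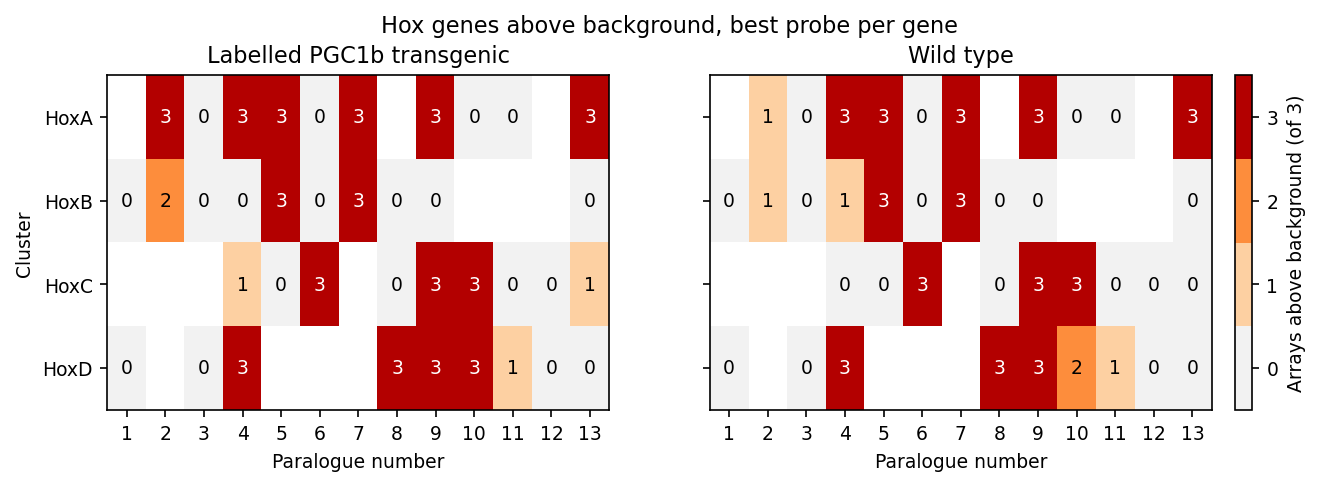
Number of arrays, of 3 per group, on which the best probe of each Hox gene was above background, by cluster (rows) and paralogue number (columns), with the arrays labelled transgenic on the left and wild type on the right. White cells hold no gene analysed here; Hoxc6, Hoxc9 and Hoxc10 are at 3 in both groups.

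The 8 genes above background on 1 or 2 arrays were Hoxb4, Hoxc4, Hoxc13, Hoxd11, Irx2, Lbx2, Meis3 and Pbx3. They were not tested, and their highest unnormalized signals ran from 86.3 for Hoxb4 to 102.9 for Meis3. Meis3, a Hox cofactor gene, read 102.9, 86.6 and 86.5 on the arrays labelled transgenic and 79.2, 83.2 and 79.9 in wild type with its best probe. Lbx2 read 98.1, 94.3 and 77.7, against 80.9, 80.8 and 83.6 in wild type.

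Levels of tested members were next compared between the genotypes, to see which position genes differ in the adult muscle. More fell than rose. Of the 34 tested members 15 passed, where 56.3% of all genes tested passed in either direction. By direction, 13 of the 34 tested members fell (38.2%, against 28.2% of all genes tested) and 2 rose (5.88%, against 28.1%), while 19 did not pass. Their median change was -0.33, against -0.03 over all genes tested, and they ranged from -1.93 to 0.70. At least 2-fold lower were 5 of them, Lbx1, Hoxc9, Hoxc10, Hoxa4 and Irx3, where 6.45% of all genes tested fell that far. Lbx1, Hoxc9 and Hoxc10 were at least 2-fold lower in every alternative. Hoxa4 and Irx3 had changes of -0.55 and -0.79 with no background correction and of -0.75 and -0.72 with arrays scaled to their median. With only probes above background on all 6 arrays, 13 of 24 fell (33.6% of all) and 1 rose (26% of all). With each array scaled to its median, the median change of all genes moved to 0.19 and that of the members to -0.03. Then 9 members fell (16.1% of all) and 4 rose (37.8% of all). In bulk muscle, fewer cells of a type and less RNA per cell cannot be told apart.

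**Figure D2:**
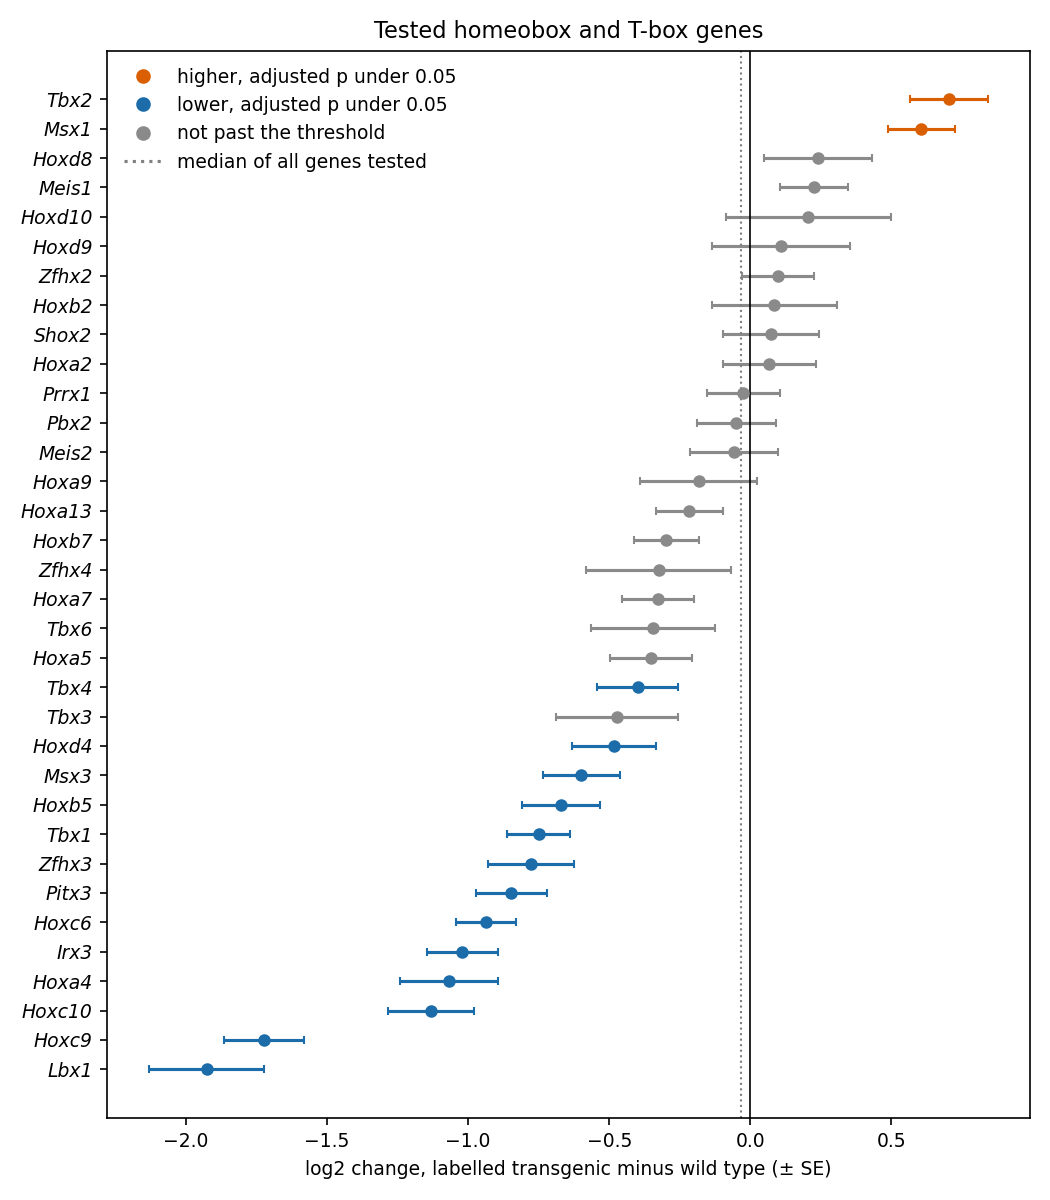
Log2 change (labelled transgenic minus wild type, horizontal axis, ± SE) of the 34 tested members, sorted from highest to lowest, with the median of all genes tested as a dotted line. Tbx2 and Msx1 lie at the top and Hoxc9 and Lbx1 at the bottom.

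Hox genes fell or did not pass. Of 16 tested, 6 fell and 0 rose in limma, and the 10 others did not pass. Of all genes tested, 28.2% fell and 28.1% rose. All 3 tested HoxC genes were among the 6 Hox genes that fell. Hoxc9, known for identity of the trunk, had levels of 7.84, 8.24 and 8.30 in the arrays labelled transgenic and 9.79, 9.82 and 9.94 in wild type. The groups lay far apart, with every wild-type array above every other one, and the difference was 3.30-fold (change -1.72, SE 0.14, adjusted p = 2.17e-05). Hoxc10, known for the lumbar region and the hindlimb, had 9.08, 8.92 and 9.40, against 10.16, 10.17 and 10.46 in wild type. It fell by 1.13 on the log2 scale (SE 0.15, adjusted p = 0.000312), again without overlap. A dimmer Hoxc10 probe had a change of -1.07. Hoxc6, which acts further forward, at the level of the forelimb and thorax, had 7.88, 7.95 and 7.94 against 8.87, 8.75 and 8.96 in wild type. Its arrays labelled transgenic were almost level with each other, and it fell by 0.94 (SE 0.11, adjusted p = 0.000128). These 3 genes lie in the HoxC cluster on chromosome 15, each read by a probe above background on all 6 arrays.

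In the other clusters 1 gene fell in each. Hoxa4 had 5.37, 5.09 and 5.44 in the arrays labelled transgenic and 6.21, 6.17 and 6.73 in wild type, a change of -1.07 (SE 0.17, adjusted p = 0.000904). Its unnormalized signals did not overlap either, at 103.4, 91.9 and 96.3 against 118.8, 113.7 and 142.7 in wild type. Hoxb5 had 6.12, 5.64 and 5.77, against 6.53, 6.54 and 6.47 in wild type, and fell by 0.67 (adjusted p = 0.00319). Hoxd4 had 5.90, 5.73 and 5.54, against 6.46, 6.02 and 6.13 in wild type, and fell by 0.48 (adjusted p = 0.0227). The unnormalized signals of Hoxb5 and Hoxd4 overlapped between the groups, and neither passed with each array scaled to its median (changes of -0.29 and -0.10). With arrays scaled to probes detected on all arrays, Hoxd4 had a change of -0.35 (adjusted p = 0.0693). Without transgenic replicate 2 or 3, or wild-type replicate 1, Hoxd4 had adjusted p = 0.0563, 0.0691 and 0.0732. Its call was thus lost in 5 of 18 alternatives.

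The other tested Hox genes did not pass. Hoxa7 had 8.02, 8.42 and 8.15 in the arrays labelled transgenic and 8.45, 8.57 and 8.56 in wild type, a change of -0.33 (adjusted p = 0.0556), and Hoxb7 had a change of -0.30 (adjusted p = 0.0546). The normalized values of both did not overlap between the groups. Hoxa7 passed in 6 of 18 alternatives, among them the one without transgenic replicate 2 (adjusted p = 0.0193), and Hoxb7 in 2. Hoxa5 had a change of -0.35 (adjusted p = 0.0685), and passed without transgenic replicate 3 (adjusted p = 0.0461), without wild-type replicate 2 (adjusted p = 0.0443) and with the replicate number as a block (adjusted p = 0.04). Hoxd8, Hoxd9 and Hoxd10, of the HoxD cluster on chromosome 2, had changes of 0.24, 0.11 and 0.21. In each of these 3 the highest array was transgenic replicate 3: Hoxd8 had 7.04, 7.25 and 7.82 in the arrays labelled transgenic, against 7.24, 7.14 and 7.01 in wild type. Without that array the changes were 0.01, -0.15 and -0.18. Hoxd8 passed with arrays scaled to their median (change 0.58, adjusted p = 0.0125). The remaining tested Hox genes were Hoxa2 and Hoxb2, of the hindbrain, with changes of 0.07 (adjusted p = 0.75) and 0.09 (adjusted p = 0.764), and Hoxa9 and Hoxa13, with changes of -0.18 (adjusted p = 0.479) and -0.22 (adjusted p = 0.147). The values of all 4 overlapped between the groups.

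**Figure D3:**
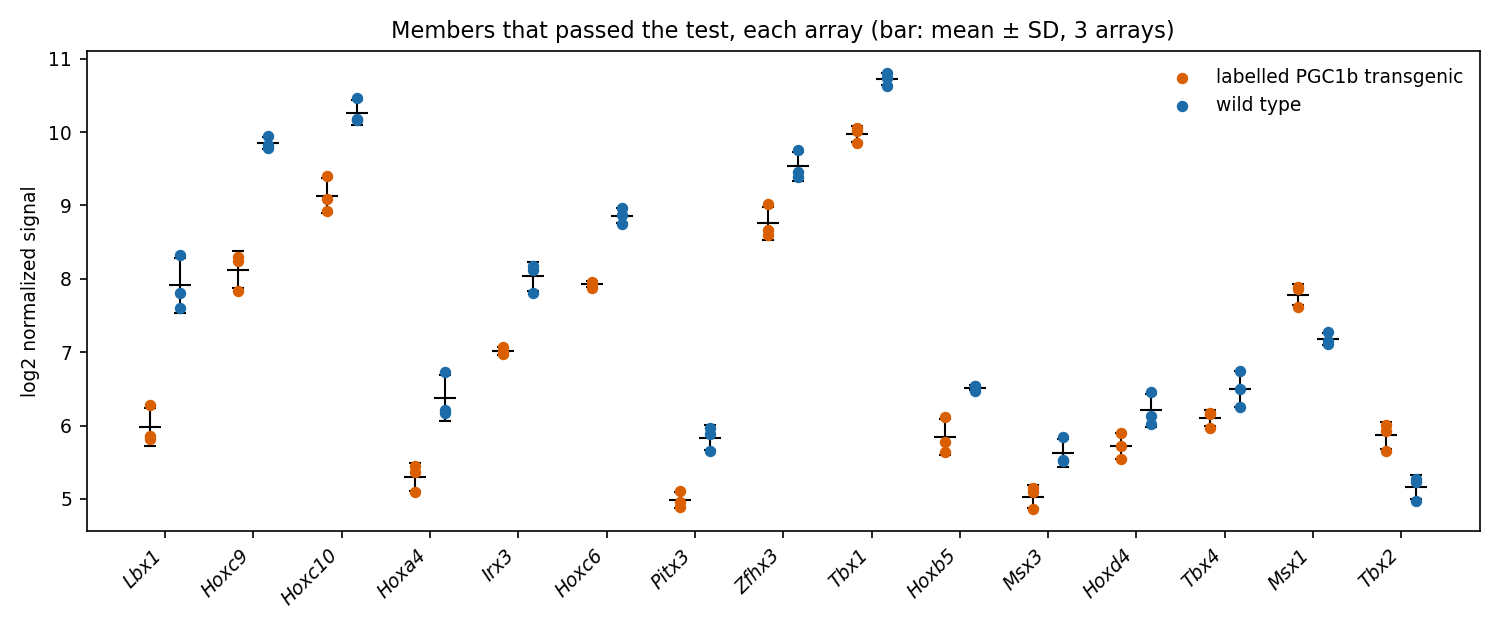
Log2 normalized signal (vertical axis) of the 15 members that passed the test, 1 point per array, with the arrays labelled transgenic in orange to the left of wild type in blue; black bars give mean ± SD of 3 arrays. The groups overlap in none of the 15, and Msx1 and Tbx2 are higher in the arrays labelled transgenic.

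Muscle-lineage and patterning homeobox genes held the largest fall among the 34 tested members. Lbx1, which guides muscle precursors into the limb, had levels of 5.81, 5.86 and 6.28 in the arrays labelled transgenic and 7.60, 7.80 and 8.32 in wild type. It fell 3.80-fold (change -1.93, SE 0.20, adjusted p = 8.06e-05), and ranked 421 of 9978 genes by size of change. A dimmer Lbx1 probe had a change of -1.0 and was above background on 1 array labelled transgenic and on all 3 wild-type arrays. The unnormalized signals of that dimmer probe overlapped, at 102, 85.3 and 64.7 against 97.4, 109.3 and 109.8 in wild type. Pitx3, a bicoid-type homeobox gene of lens, midbrain neurons and muscle precursors, had 5.11, 4.95 and 4.90, against 5.97, 5.89 and 5.65 in wild type. It fell by 0.85 (SE 0.13, adjusted p = 0.000538), and was above background on 1 array labelled transgenic and all 3 wild-type arrays. Pitx3 thus met the detection rule mainly through the group where it was high. Irx3, an Iroquois homeobox gene whose promoter is shown above, had 7.07, 6.97 and 7.0, against 7.81, 8.12 and 8.18 in wild type. Its fall was 2.03-fold (change -1.02, SE 0.13, adjusted p = 0.000198), with a gap between the groups wider than the spread within either.

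Of the 3 zinc-finger homeobox genes, 1 fell and the others did not pass. Zfhx3, encoding a large protein with many zinc fingers and several homeodomains, had levels of 8.66, 9.02 and 8.60 in the arrays labelled transgenic and 9.39, 9.76 and 9.45 in wild type. It fell by 0.78 (SE 0.15, adjusted p = 0.00252), and its 3 kept probes had changes of -0.78, -1.06 and -1.16. Zfhx2 had 8.70, 8.70 and 8.67, against 8.36, 8.77 and 8.64 in wild type, a change of 0.10 (SE 0.13, adjusted p = 0.539). The groups overlapped, and the single lowest value was wild-type replicate 1. Zfhx4, near background, had a change of -0.32 (adjusted p = 0.31) and passed without wild-type replicate 2 (change -0.68, adjusted p = 0.00677). Whether Zfhx3 and Zfhx2 differ in their change was not tested.

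Msx1 was the 1 homeobox member that rose. Msx1, which holds limb and muscle progenitors in an undifferentiated state in the embryo, had 7.88, 7.86 and 7.62 in the arrays labelled transgenic and 7.15, 7.12 and 7.27 in wild type. The change was 0.61 (SE 0.12, adjusted p = 0.00236), a 1.52-fold difference, and unnormalized signals of 339.3, 320.1 and 246.8 stood against 180.8, 170.4 and 185.6. Its relative Msx3, known in mouse for the dorsal neural tube, was near background and fell by 0.60 (adjusted p = 0.00554), with unnormalized signals that overlapped (93.1, 83.9 and 86.7 against 94.4, 93 and 102.6 in wild type). Msx3 did not pass with arrays scaled to their median (adjusted p = 0.0572).

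T-box genes went both ways. Tbx1, a regulator of head and branchial muscle formation, was read at unnormalized signals of 1233.8, 1054.9 and 1075.2 on the arrays labelled transgenic and 1847.2, 1558.7 and 1656 in wild type. Its levels were 10.01, 9.86 and 10.05 in the arrays labelled transgenic and 10.81, 10.63 and 10.74 in wild type, and it fell by 0.75 (SE 0.11, adjusted p = 0.000533). The groups were separated by more than the spread of either. Tbx2, encoding a transcriptional repressor, rose: 6.01, 5.92 and 5.66 against 5.27, 5.23 and 4.98 in wild type (change 0.70, SE 0.14, adjusted p = 0.00242). It was above background on all 3 arrays labelled transgenic and on 2 wild-type arrays.

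Tbx4, the hindlimb gene of the family, gave a call that most alternatives did not keep. It had 6.17, 6.16 and 5.97 in the arrays labelled transgenic and 6.25, 6.50 and 6.75 in wild type, a change of -0.40 (SE 0.14, adjusted p = 0.0425). Its unnormalized signals overlapped fully, at 144, 139.9 and 116.3 against 120.3, 128.4 and 143.8 in wild type. The call was lost in 11 of 18 alternatives, and with arrays scaled to their median the change was -0.0025. Without any one transgenic replicate, or without wild-type replicate 2 or 3, adjusted p was 0.0672, 0.07, 0.113, 0.0892 and 0.142. Tbx3 had a change of -0.47 (adjusted p = 0.0911), and passed without transgenic replicate 3 (change -0.68, adjusted p = 0.0227) and with the replicate block (adjusted p = 0.0393). Of its 3 kept probes 1 was called with every probe as a feature, at -0.56 (adjusted p = 0.0318). Tbx6 had a change of -0.34 (adjusted p = 0.212), and passed without wild-type replicate 2 (change -0.61, adjusted p = 0.0206).

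The tested Meis, Pbx, Prrx and Shox members did not pass, and Meis3 and Pbx3 were not tested. This does not hold for all Hox cofactor genes. Pknox1 and Pknox2, of the list of other homeobox genes, fell, with changes of -0.87 (adjusted p = 0.000486) and -0.87 (adjusted p = 0.000771). Meis1 had 7.65, 7.41 and 7.32 in the arrays labelled transgenic and 7.17, 7.29 and 7.25 in wild type, a change of 0.23 (SE 0.12, adjusted p = 0.139). Its groups did not overlap, and it passed with arrays scaled to their median (change 0.55, adjusted p = 0.0113). Pbx2, encoding a partner of Hox and Meis proteins, had a change of -0.05 (SE 0.14, adjusted p = 0.781), and Meis2 one of -0.06 (SE 0.16, adjusted p = 0.777). Prrx1, a marker of limb bud mesenchyme that persists in connective tissue cells, had 6.99, 7.25 and 7.0, against 6.96, 7.27 and 7.08 in wild type. Those values interleave, with a change of -0.03 (SE 0.13, adjusted p = 0.881), and its 3 kept probes ran from -0.14 to -0.03. Shox2, which acts in the upper limb segment, had a change of 0.07 (SE 0.17, adjusted p = 0.738).

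How far the calls rest on scaling was read from the unnormalized signals. Of the 15 called members 11 had unnormalized signals that did not overlap between the groups, in the direction of the call. The same 11 kept call and direction in every alternative in which they were tested: Hoxa4, Hoxc6, Hoxc9, Hoxc10, Irx3, Lbx1, Pitx3, Tbx1, Zfhx3, Msx1 and Tbx2. These were 18 alternatives for each gene except Tbx2 (17) and Pitx3 (16). Both dropped out where detection on all 6 arrays was required, and Pitx3 also where detection p had to be under 0.01. The other 4 called members were Hoxb5, Hoxd4, Msx3 and Tbx4. Over the 34 tested members, unnormalized signals were lower without overlap in 9 and higher without overlap in 6, against 17.3% and 42.6% of all genes tested. After normalization the counts were 15 lower and 3 higher, against 32.3% and 31.5% of all. The 6 with higher unnormalized signals were Msx1, Tbx2, Meis1, Hoxd8, Hoxd9 and Hoxa13. Hoxa13, whose normalized change was -0.22, read 137.5, 129.7 and 128.2 on the arrays labelled transgenic against 117.4, 123 and 121.5 in wild type, and its change was 0.18 with arrays scaled to their median.

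**Figure D4:**
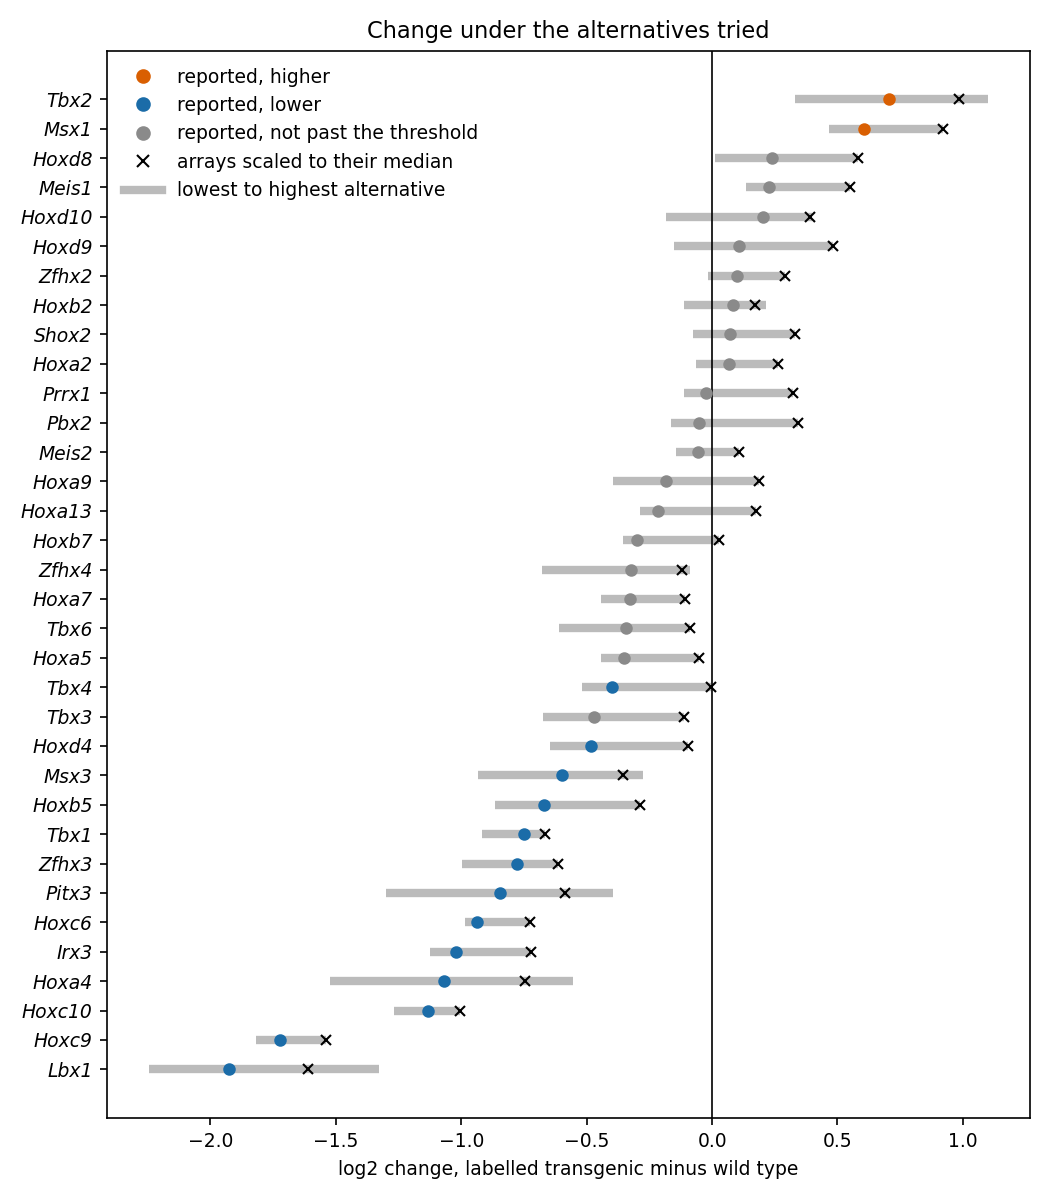
Log2 change of the 34 tested members as reported (circles), with arrays scaled to their median (crosses) and over all alternatives (grey bars from lowest to highest). The bars of Lbx1, Hoxc9 and Hoxc10 stay below 0 and those of Msx1 and Tbx2 above 0, while the cross of Tbx4 lies at -0.0025.

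Members with several kept probes gave the same sign throughout. There were 10 tested members with at least 2 kept probes, and in all 10 the kept probes had changes of 1 sign. In Hoxc10, Lbx1 and Zfhx3 every kept probe was called, 2 of 2, 2 of 2 and 3 of 3. Msx1 and Tbx2, the members that rose, each had 1 kept probe of 2. Their other probes, above background on 0 arrays, had changes of -0.07 and -0.14. Single-probe members numbered 36 of 70, and 13 of the 34 tested.

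Other homeobox genes went both ways as well. Of 25 tested genes of a list of 42, 5 rose (20%, against 28.1% of all genes tested) and 9 fell (36%, against 28.2%), with a median change of 0.01. Zhx1, encoding a zinc-finger homeobox repressor, fell by 1.94, and Satb1, encoding a chromatin organizer, by 1.39. Meox1, a homeobox gene of the somite, rose by 1.67, and Alx4, which limits the anterior side of the limb bud, by 1.36. Adjusted p-values of these 4 were between 3.9e-06 and 0.00104. Alx4 was above background on 3 arrays labelled transgenic and on 0 wild-type arrays, so it was tested only through the group where it was high. With arrays scaled to their median 11 of the list rose (44%, against 37.8% of all). Among 22 tested limb patterning genes, 6 rose and 3 fell (median 0.17), which is 27.3% and 13.6%, so the share that rose was close to that of all genes tested. Sox9, of cartilage and tendon progenitors, rose by 1.34, Gdf5, of the joints, by 1.20, and Fgf10, the limb bud growth factor, by 0.67. Gdf5 and Fgf10 were above background on 3 arrays labelled transgenic and on 0 wild-type arrays. Both were thus tested only through the group where they were high, and their wild-type levels are background. Sall4 fell by 0.76, and 0 of the list fell with arrays scaled to their median, where 11 rose (50%, against 37.8% of all). Without transgenic replicate 3, 3 limb patterning genes rose.

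Regulators of Hox clusters were also read. Polycomb proteins keep Hox genes off through repressive histone marks, and Trithorax proteins keep them on. Of 23 tested Polycomb genes 11 fell (47.8%, against 28.2% of all genes tested) and 1 rose (4.35%, against 28.1%), with a median of -0.27 against -0.03 over all genes. Phc1 fell by 2.23, Cbx7 by 1.32, Yaf2 by 1.12 and Bmi1 by 0.80. Of 22 tested Trithorax and MLL genes 7 fell (31.8%, close to the share of all genes) and 1 rose (4.55%), with a median of -0.18. Mllt3 fell by 1.73, Mllt1 by 0.92 and Kmt2d by 0.79, while Dot1l rose by 1.17. With arrays scaled to their median 3 Polycomb genes fell (13%) and 3 rose (13%), and 3 Trithorax genes fell (13.6%) and 2 rose (9.09%), against 16.1% and 37.8% of all. Without transgenic replicate 2 or wild-type replicate 3, 4 Trithorax genes fell. Leaving out any array other than wild-type replicate 3 left 0 Polycomb genes that rose.

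Markers of cell types were also read, beside the 28.1% of all genes tested that rose and the 28.2% that fell. Of 10 tested macrophage markers 9 rose and 0 fell, and their summed linear signal was 9194 to 16070 in the arrays labelled transgenic, against 2144 to 2386 in wild type. Of 12 tested fibroblast markers 9 rose and 0 fell, with sums of 19260 to 21470 against 12800 to 13870 in wild type. Muscle fibre markers fell in 6 of 12 and rose in 0, with sums of 184600 to 187900 against 247300 to 252700 in wild type. The 4 that fell most were Myh4 (-3.91), Actn3 (-3.61), Casq1 (-1.88) and Ryr1 (-1.22), while the 6 that did not pass, Acta1 and Mylpf among them, had changes of -0.16 to 0.08. Endothelial markers fell in 2 of 11 and mural markers in 5 of 10, and 0 of either rose. Satellite and early myogenic markers rose in 3 and fell in 1 of 6 tested, and the satellite cell genes Pax7 and Myf5 were above background on no array. Of 5 tested tendon markers 1 rose and 1 fell, and of 5 Schwann cell markers 2 rose and 2 fell. Of 5 lymphocyte markers 3 rose and 0 fell, and the 3, Cd3d, Cd3g and Nkg7, were above background on 0 wild-type arrays. The same holds for the macrophage marker Fcgr1. These genes were tested only through the group where they were high. Of 5 adipocyte markers 3 rose and 1, Plin4, fell. The adipocyte sums were 2235 to 3807 in the arrays labelled transgenic, against 3546 to 4136 in wild type. The part of these cell types in the changes of homeobox and T-box genes was not tested.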

How the data were processed

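Tibialis anterior RNA of 3 arrays labelled PGC1b transgenic and 3 labelled wild type was measured on 1-colour Illumina arrays. An oligo-dT primer was used to make biotinylated cRNA, per the labels' protocols. The submitters' processing notes name GenomeStudio. One deposited table holds, per the file headers, unnormalized intensity. Beside each intensity column stands a deposited detection p-value, which fell or stayed level as intensity increased (0 exceptions). The authors' second deposited table holds intensity values with a common minimum (-22.6) and maximum (30836.5) on all arrays, taken from the values as background-subtracted and quantile-normalized; no source used here states either step.

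From the unnormalized signals, limma's neqc (version 3.58.1, R 4.3.3) gave the levels: normexp background correction with controls inferred from detection p, an offset of 16, quantile normalization and log2. The offset compresses changes of dim probes. Kept were 17166 probes, by the detection rule of the report, the brightest named probe stood for each gene (9978), and genotypes were compared with lmFit and eBayes, two-sided, with Benjamini-Hochberg adjustment over all genes. Every adjusted p is from limma. Symbols are from the platform annotation; 34807 of 34885 single-symbol probes matched RefSeq by Entrez ID. Every tested member is named. Of the lists of other homeobox, limb patterning, Polycomb, Trithorax and muscle fibre genes, the 4 called genes that changed most are named. Pknox1 and Pknox2 are named besides. Cell type marker lists are given by counts, with sums for the macrophage, fibroblast, muscle fibre and adipocyte lists only. The members and lists were chosen with earlier results of these data known. Same-numbered arrays did not deviate together (correlations of -0.05, 0.03 and 0.00), so the number was not used as a pairing in the reported fit. Such correlations cannot exclude that the number pairs arrays. Alternatives changed background, normalization, filter, probe summary, variance model, weights, values used, block and arrays.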

Additional observations from a re-analysis of the deposited data

How the results depend on the processing

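The counts of members called depended little on most settings. Over the alternatives other than those that leave out an array, 9 to 14 members fell, and 2 rose except with arrays scaled to their median (4), without a filter (3) and with only probes detected on all 6 arrays (1, since Tbx2 was not tested there). Leaving out 1 array gave 12 to 15 that fell and 2 that rose. With the replicate number as a block 14 fell and 2 rose: Tbx4 lost its call (adjusted p = 0.0721), Hoxa5 and Tbx3 gained one, and no other member's call changed. Of 587 comparisons of a member's change with its reported value, 527 kept call and direction, 18 lost the call, 18 gained one and 24 turned sign, 0 of these in a called member. Signs turned with arrays scaled to their median in Hoxa13 (0.18), Hoxa9 (0.19), Hoxb7 (0.026), Meis2 (0.11), Pbx2 (0.34) and Prrx1 (0.32), with arrays scaled to detected probes in Hoxb2 (-0.080), Pbx2 (0.092) and Prrx1 (0.070), and in the authors' value table in Hoxb2 (-0.10) and Meis2 (0.065). Leaving out 1 array gave ranges that cross 0 for Hoxa2 (-0.064 to 0.26), Hoxa9 (-0.39 to 0.0011), Hoxb2 (-0.11 to 0.21), Hoxd9 (-0.15 to 0.31), Hoxd10 (-0.18 to 0.40), Meis2 (-0.11 to 0.094), Pbx2 (-0.17 to 0.018), Prrx1 (-0.11 to 0.057), Shox2 (-0.077 to 0.26) and Zfhx2 (-0.017 to 0.19). The cause was not tested. Scaling to the median moved the split of all calls to 3772 higher and 1607 lower, against 2801 and 2812. The chip as a block was not run, since neither labels nor headers give chips. Changes of probes near background, among them those of Pitx3, Msx3, Hoxa4 and Tbx2, are limited by their signal over background.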
